A study of Mus musculus with 4 samples.

Results

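The tumour suppressor p53, encoded by *Trp53*, was followed here through the genes it is known to activate, in embryonic lung of mice lacking *Hmga2*, a chromatin-associated high mobility group protein. The set was defined by symbol and held 10 genes: *Trp53* itself and the targets *Mdm2*, *Ccng1*, *Zmat3*, *Bax*, *Bbc3*, *Perp*, *Eda2r*, *Phlda3* and *Sesn2*. A gene entered through a probe set that the platform annotation pairs with its symbol alone. By this rule 8 genes were found among the 19938 genes measured, each with 1 probe set, and *Trp53* and *Bax* were not analysed here. The set is therefore described as p53 target genes.

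The 4 arrays came from whole lungs of C57BL/6 embryos at embryonic day (E) 18.5. There were 2 *Hmga2*+/+ samples (WT) and 2 *Hmga2*−/− samples (KO), labelled as biological replicates 1 and 2 of each genotype. The deletion was carried in the germ line, so it was present in every cell of the embryo, and no treatment was given to either group. How many embryos stand behind an RNA sample was not stated, and both WT samples bear the same group name in their titles, so p values measure the spread between these samples. Values are log2 expression values made by the authors with RMA, a method that corrects background, brings the arrays to a common distribution and gives 1 value for each probe set. Whether a signal stood above background cannot be read from such values, and precision is limited by the number of arrays.

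p53 is a transcription factor that is held at a low level by the ubiquitin ligase MDM2 and accumulates when DNA is damaged, when ribosome production fails or when an oncogene is active. It binds response elements built from a repeated sequence of 10 letters, the decamer, and switches on genes that stop the cell cycle, repair DNA, kill the cell or slow its metabolism. *Mdm2* is itself a target, which closes a negative feedback loop. In the developing embryo, loss of *Mdm2* is lethal through unrestrained p53. The arrays measure RNA of the targets and not the p53 protein or its activity.

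The response element was searched for in the promoters of the target genes, as a description of the sequence before their starts. A match in letters is not a measured binding site. The decamer was taken as 3 purines, C, A or T, A or T, G and 3 pyrimidines, a pattern that reads the same on both strands. An element was 2 decamers at most 13 bases apart with at most 3 letters off in all. The 250 bases before a transcription start were read from RefSeq (GRCm38.p6), where 6 of the 8 genes had an entry, with 8 promoters among them. *Zmat3* and *Perp* were not matched.

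With the 4 central letters of each decamer kept exact, an element was found for 1 of the 6 genes, *Bbc3*, and among all genes with a promoter for 6.43%. With the C and the G alone kept exact, it was found for 2 of the 6 genes, *Bbc3* and *Ccng1*, and for 14.6% of all genes. A decamer without any letter off stood before *Mdm2* and *Ccng1*, and before 8.2% of all genes. The sequences that carry these matches are given 5′ to 3′ on the strand of the gene, with matching decamers in capitals. The *Ccng1* stretch stops short of the annotated gene. *Bbc3* had several windows, all within the annotated gene, and only its element found under both rules is given.
Mdm2, chr10:117710759-117711008, minus strand: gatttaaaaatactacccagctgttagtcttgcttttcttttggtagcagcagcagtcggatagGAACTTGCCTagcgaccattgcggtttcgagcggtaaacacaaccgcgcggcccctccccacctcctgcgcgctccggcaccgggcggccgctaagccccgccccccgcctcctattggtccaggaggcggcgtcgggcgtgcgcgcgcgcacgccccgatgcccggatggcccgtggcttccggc
Ccng1, chr11:40755310-40755536, minus strand: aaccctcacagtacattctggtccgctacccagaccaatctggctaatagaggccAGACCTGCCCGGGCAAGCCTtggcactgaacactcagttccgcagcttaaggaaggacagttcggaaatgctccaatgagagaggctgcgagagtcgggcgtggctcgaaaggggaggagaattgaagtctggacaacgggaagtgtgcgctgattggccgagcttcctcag
Bbc3, chr7:16309486-16309505, plus strand: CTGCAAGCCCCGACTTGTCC

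In *Ccng1* the element lay 195 to 176 bases before the start, with 1 letter off and 0 bases between its decamers. In *Bbc3* the printed element lay 97 to 78 bases before 1 of its starts, with 3 letters off and 0 bases between. Another *Bbc3* window held a further element, only with the C and the G alone kept exact. It lay 105 to 84 bases before that start, with 3 letters off and 2 bases between. The remaining *Bbc3* window held no element. No element in these letters was found in the windows of *Mdm2*, *Eda2r*, *Phlda3* or *Sesn2*, which says nothing of sites elsewhere. *Mdm2* is known to answer p53 from a second promoter in its first intron, outside the window.

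The targeted gene was looked at first. *Hmga2* had log2 values of 9.35 and 9.59 in WT replicates 1 and 2 and of 9.65 and 9.39 in KO replicates 1 and 2. The groups overlapped, and the difference KO minus WT was 0.051 (standard error 0.16, adjusted p = 0.892 by limma over all genes). Whether its probe set lies in the deleted part is not known here, so its values do not check the labels, and every direction given is that of the arrays labelled KO. Over probe sets, the arrays labelled KO correlated at r = 0.997 with each other, WT replicate 2 with them at 0.993 and 0.992, and WT replicate 1 with the other arrays at 0.976 to 0.985. WT replicate 1 thus stood apart. Lung markers were present on every array.

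Of 15 lung epithelium markers 10 were lower on average in the arrays labelled KO (median difference −0.48). By limma 4 fell past the adjusted threshold, which 0.782% of all genes passed in either direction. Their differences were −3.07 for *Sftpd*, −2.69 for *Scgb1a1*, −2.20 for *Aqp5* and −1.10 for *Sftpa1*, whereas *Sftpc* had −0.096. Higher means were seen for 5, with 0.69 for *Epcam*, 0.11 for *Nkx2-1*, 0.065 for *Krt18*, 0.049 for *Foxj1* and 0.017 for *Cdh1*. For *Epcam* both KO arrays lay above both WT arrays (adjusted p = 0.178 by limma). All 11 immune cell markers (median −0.43) and 8 of 9 endothelium markers (median −0.27) had lower means, as had 11732 of all 19938 genes. Past the threshold were 0, and 6 and 4 of them had an unadjusted p under 0.05 by limma. Of all genes 8.58% were lower at that level. Of 9 heart muscle markers 8 were higher (median 0.64), and *Nppa* rose past the threshold by 1.78, whereas *Myh7* had −0.41. Of 13 mesenchyme markers 10 had higher means (median 0.072), and *Lum* and *Dcn* rose past the threshold by 2.05 and 1.13. *Eln* had −0.47 (adjusted p = 0.170 by limma), with both KO arrays below both WT arrays. Of 6 erythroid markers 4 had lower means (median −0.11), but the largest difference was that of *Hbb-y*, 1.23 (adjusted p = 0.106 by limma). Summed on a linear scale and divided by their mean over the arrays, the epithelial markers stood at 1.17 and 1.17 in WT and at 0.837 and 0.817 in the arrays labelled KO. The brightest genes weigh most in such a sum. On the same scale the immune markers stood at 1.10 and 1.21 in WT and at 0.880 and 0.810, and the heart muscle markers at 0.827 and 0.742 in WT and at 1.29 and 1.14. In whole tissue, fewer cells of a type and less RNA per cell cannot be told apart.

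The p53 target genes lay at nearly the same level in both genotypes. Of the 8 measured, 3 had higher means in the arrays labelled KO (*Zmat3*, *Perp* and *Eda2r*) and 5 had lower ones (*Mdm2*, *Ccng1*, *Bbc3*, *Phlda3* and *Sesn2*). Their median log2 difference was −0.038, beside −0.051 for all genes, and the median size of the difference, regardless of sign, was 0.080, beside 0.17 for all genes. By limma 0 of the 8 passed an adjusted p of 0.05, where 0.782% of all genes did, and 0 had an unadjusted p under 0.05, where 14.5% of all genes had. *Perp* alone differed by 1.2-fold or more, a size met by 30.5% of all genes. Shares of 8 genes are coarse, and their difference from the shares of all genes was not tested. An exact permutation test of 2 arrays against 2 cannot give a two-sided p below 0.333.

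*Mdm2*, the ubiquitin ligase that degrades p53, had log2 values of 10.33 and 10.58 in WT replicates 1 and 2 and of 10.49 and 10.34 in KO replicates 1 and 2. Both KO arrays lay between the WT arrays. The difference was −0.044 (standard error 0.15, adjusted p = 0.902), with a 95% interval in fold of 0.759 to 1.24. Without WT replicate 2 it turned to 0.077, and without KO replicate 2 to 0.031.

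*Ccng1*, the gene of cyclin G1, which recruits a phosphatase that acts on MDM2, had values of 11.53 and 11.66 in WT and of 11.52 and 11.35 in KO. It was the only member whose KO arrays both lay below both WT arrays, and KO replicate 1 was below WT replicate 1 by far less than the KO arrays were apart. The difference was −0.16 (standard error 0.14, adjusted p = 0.599), with an interval in fold of 0.713 to 1.13. Leaving out 1 array moved it between −0.24, without KO replicate 1, and −0.074, without KO replicate 2.

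*Zmat3*, which encodes a zinc finger protein that binds RNA and acts on splicing and messenger stability, was the steadiest member, with 7.92 and 7.92 in WT and 8.02 and 7.96 in KO. Both KO arrays lay slightly above both WT arrays. Its difference of 0.069 (standard error 0.12, adjusted p = 0.806) was the only one among the members that exceeded both gaps between replicates, and its whole range over the 4 arrays was 0.099. The interval in fold was 0.852 to 1.29, and the difference was 0.040 without KO replicate 1.

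*Bbc3*, which encodes PUMA, a BH3-only protein that sets off mitochondrial cell death, had 7.94 and 8.24 in WT and 8.06 and 7.94 in KO. WT replicate 2 was high and the other arrays lay close together, so the groups overlapped. The difference was −0.092 (standard error 0.15, adjusted p = 0.787) and turned to 0.055 without WT replicate 2. Its interval in fold was 0.728 to 1.21.

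*Perp*, a tetraspan membrane protein of desmosomes that also takes part in cell death, had the widest range of the members, with 9.60 and 9.93 in WT and 9.99 and 10.09 in KO. Both KO arrays lay above both WT arrays, but WT replicate 2 was closer to them than to WT replicate 1. The difference was 0.28 (standard error 0.16, adjusted p = 0.447), a fold of 1.22 with an interval of 0.936 to 1.58. Leaving out WT replicate 1 gave 0.12, and leaving out WT replicate 2 gave 0.45. In that last setting WT replicate 1 is a lone array and limma called *Perp* (adjusted p = 0.0164), as it called 16.7% of all genes higher. Over all alternatives its adjusted p ran from 0.0164 to 0.937.

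*Eda2r*, the receptor of ectodysplasin A2 in the TNF receptor family, had 5.76 and 5.77 in WT and 6.09 and 5.79 in KO. KO replicate 1 stood alone, and KO replicate 2 lay just above the WT arrays. The difference of 0.17 (standard error 0.15, adjusted p = 0.602) fell to 0.021 without KO replicate 1. By mean, 16.2% of all genes were dimmer, which puts the gene well within the dimmest 40 percent. Its interval in fold was 0.878 to 1.45.

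*Phlda3*, whose product competes with AKT for membrane lipids and so restrains it, had 9.66 and 9.87 in WT and 9.76 and 9.71 in KO. *Sesn2*, which encodes sestrin 2, a leucine-binding inhibitor of mTORC1 that also answers other stresses through ATF4, had 8.72 and 9.04 in WT and 8.84 and 8.81 in KO. In both genes the KO arrays lay between the WT arrays. The differences were −0.031 (standard error 0.14, adjusted p = 0.929) for *Phlda3* and −0.052 (standard error 0.15, adjusted p = 0.887) for *Sesn2*, and without WT replicate 2 they turned to 0.072 and 0.11. The intervals in fold were 0.779 to 1.23 and 0.747 to 1.24.

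**Figure D1:**
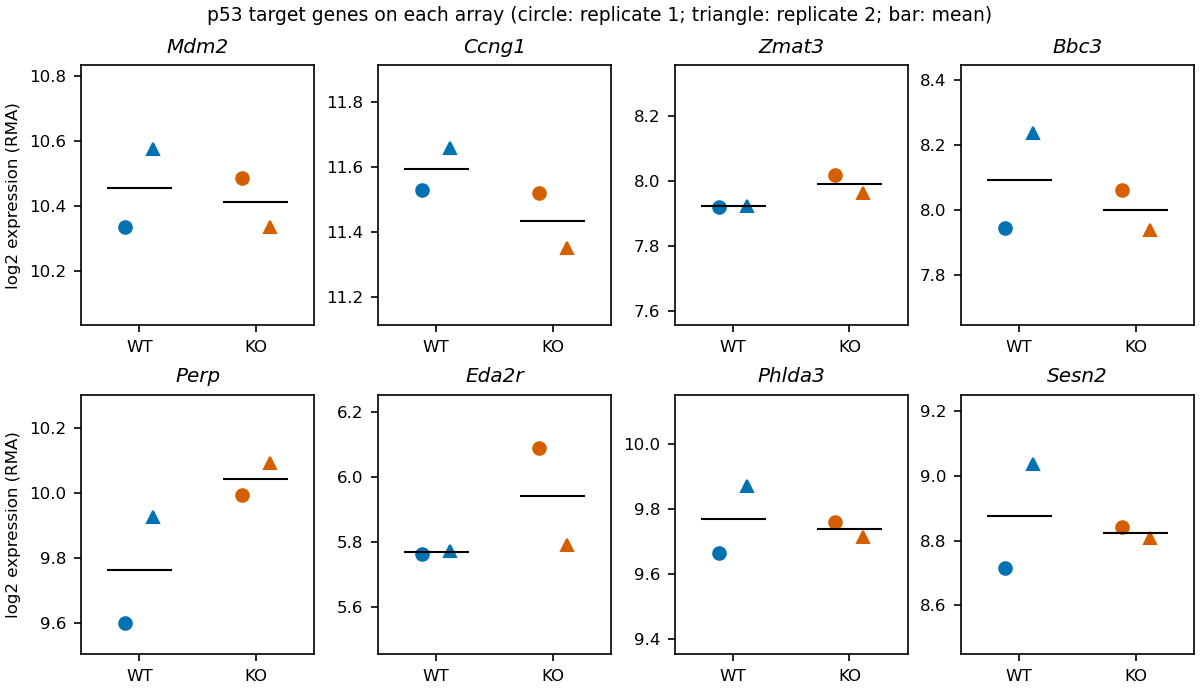
Log2 expression of the 8 p53 target genes on each array, by genotype, with replicate 1 as a circle, replicate 2 as a triangle and the group mean as a bar, and with a span of equal height in every panel. The KO arrays lie between the WT arrays in *Mdm2*, *Phlda3* and *Sesn2*, and *Perp* has the widest range (0.50).

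Replicates of one genotype were often further apart than the genotypes. In 7 of the 8 members the larger gap between 2 arrays of the same group exceeded the difference between the groups, as it did in 66.9% of all genes. All 8 members were higher in WT replicate 2 than in WT replicate 1, by a median of 0.23, where 58.3% of all genes were higher and the median was 0.059. In 7 of the 8, all but *Perp*, KO replicate 2 lay below KO replicate 1, as did 78.3% of all genes. The KO and WT arrays did not overlap in 4 of the 8 members, beside 49.4% of all genes. Over the members, the 95% intervals reached from 0.713-fold to 1.58-fold, which bounds what these arrays can tell of a change in any one of them.

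**Figure D2:**
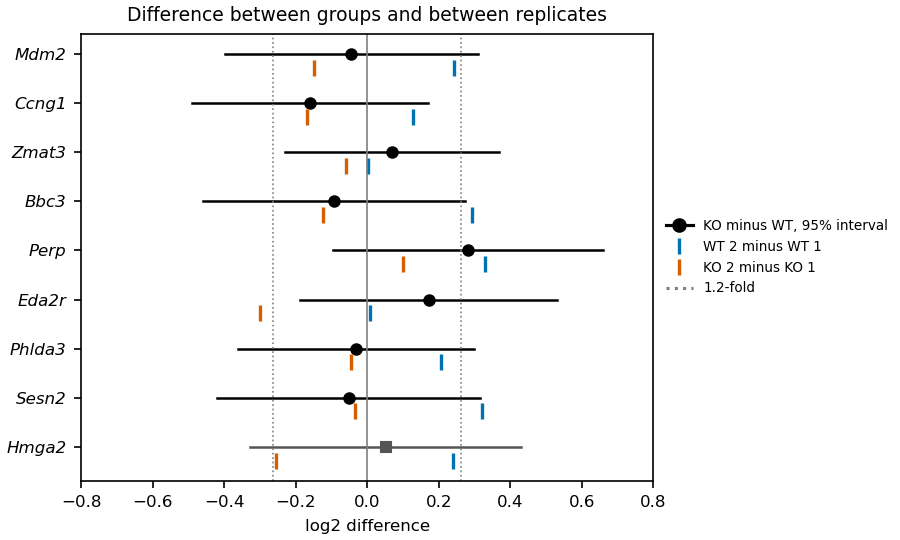
Log2 difference KO minus WT of the 8 p53 target genes (circles) and of *Hmga2* (square) with 95% intervals from limma, and below each the gap between the WT replicates (blue tick) and between the KO replicates (orange tick), with 1.2-fold as dotted lines. Every interval spans 0, and a replicate gap exceeds the group difference in 7 of the 8 target genes.

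The regulators of p53 and its relatives were taken from a wider list, of which 28 of 29 genes were measured. In this list 17 genes had higher and 11 had lower means in KO, and the median of the log2 differences was 0.039. By limma 0 passed the adjusted threshold, with an unadjusted p below 0.05 for 3 higher and 1 lower, a share near the 14.5% of all genes. *Chek1*, the checkpoint kinase that restrains replication under stress and phosphorylates p53, had the largest difference. Its values were 8.14 and 9.05 in WT and 9.97 and 9.85 in KO, a difference of 1.32 (standard error 0.28, adjusted p = 0.110). WT replicate 1 lay lowest by far and the KO arrays lay together, and the difference was 0.86 without WT replicate 1. *Usp10*, a deubiquitinase of p53, had 0.46 (standard error 0.16, adjusted p = 0.267, and 0.29 without WT replicate 1), and *Trp53bp1*, a reader of broken DNA ends, 0.34 (standard error 0.13, adjusted p = 0.321). *Kat2b*, an acetyltransferase of p53, went the other way with −0.49 (standard error 0.13, adjusted p = 0.182).

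Other known targets of p53 also lay on both sides. Of 65 listed, 59 were measured, 26 with higher and 33 with lower means, and their median difference was −0.044, beside −0.051 for all genes. By limma 0 of the 59 passed over all genes, with an unadjusted p below 0.05 for 5 higher and 6 lower, where 5.88% and 8.58% of all genes were higher and lower at that level. A change of 1.2-fold or more was seen in 10 higher and 12 lower, 37.3% in all, beside 30.5% of all genes. *Cdkn1a*, the inhibitor of cyclin-dependent kinases through which p53 stops the cycle, had no probe set annotated with its symbol alone. It was not analysed here, and neither were *Gdf15*, *Fdxr*, *Gls2* and *Sco2*, among others.

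Among the 23 targets that act in arrest and repair, 10 had higher and 13 lower means (median −0.049). By limma 3 had an unadjusted p under 0.05, a share near the 14.5% of all genes. These 3 were higher in the arrays labelled KO, where 5.88% of all genes were higher and 8.58% lower at that level. Each is a protein of the spindle or of G2 and mitosis. *Psrc1*, which binds spindle microtubules, had values of 8.66 and 9.49 in WT and 10.20 and 10.11 in KO, a difference of 1.08 (standard error 0.26, adjusted p = 0.144). *Gtse1*, which is made in G2 and carries p53 out of the nucleus, had 8.05 and 9.03 in WT and 9.68 and 9.46 in KO, a difference of 1.03 (standard error 0.31, adjusted p = 0.207). *Ckap2*, another microtubule protein, had 8.06 and 8.74 in WT and 9.30 and 9.16 in KO, a difference of 0.83 (standard error 0.23, adjusted p = 0.184). In each of them WT replicate 1 was lowest, WT replicate 2 in between and the KO arrays highest. Without WT replicate 1 the differences were 0.67, 0.54 and 0.49. The same order held for the medians of 19 proliferation markers, each lower in WT replicate 1 than in WT replicate 2, whose summed level relative to the mean of the arrays was 0.524 and 0.887 in WT and 1.34 and 1.25 in KO. All 19 had higher means in KO, and the median of 0.997 was 0.61 without WT replicate 1. By limma 0 of them passed, and 19 had an unadjusted p under 0.05, where 14.5% of all genes had. Whether the cell cycle genes among the p53 targets moved with the share of dividing cells was not tested.

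**Figure D3:**
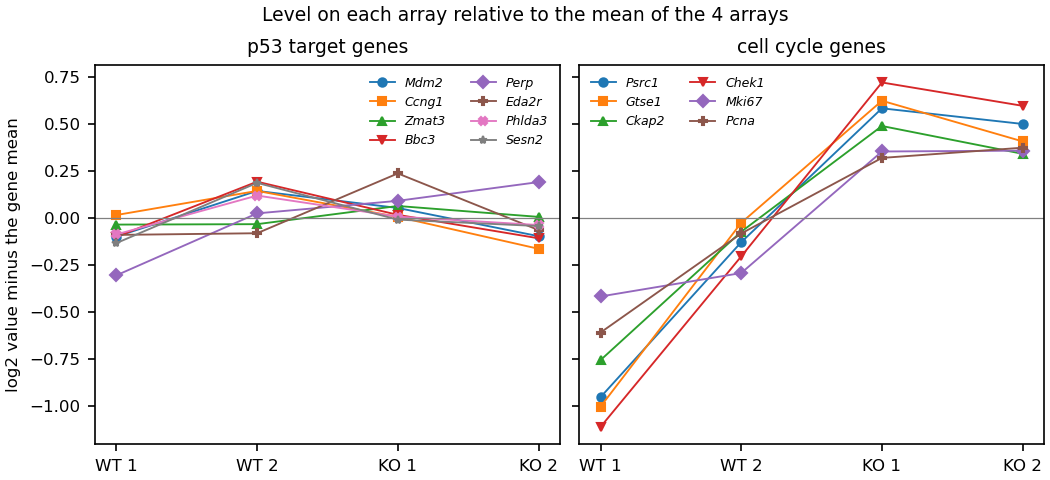
Log2 value minus the mean over the 4 arrays, for the 8 p53 target genes (left) and for 6 cell cycle genes (right), *Psrc1*, *Gtse1*, *Ckap2*, *Chek1*, *Mki67* and *Pcna*, on a common axis, where lines join the values of a gene. The target genes stay close to their means, and the cell cycle genes lie lowest in WT replicate 1 and highest in the KO arrays.

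Among the 19 targets that act in cell death, 9 had higher and 10 lower means (median −0.035), and 0 passed the adjusted threshold in limma. An unadjusted p below 0.05 by limma was seen for 1 higher and 4 lower, where 5.88% of all genes were higher and 8.58% lower. *Fas*, the death receptor, had 8.46 and 8.07 in WT and 7.56 and 7.43 in KO, a difference of −0.77 (standard error 0.17, adjusted p = 0.118). Both KO arrays lay below both WT arrays. The immune cell markers were lower in the same arrays, and their part in the lower values of *Fas* and of the immune-related *Casp1*, *Tap1*, *Birc3*, *Traf1* and *Tnfrsf1b* was not tested. *Ndrg1*, a gene raised by hypoxia and differentiation, had −0.43 (standard error 0.14, adjusted p = 0.228), and *Casp1*, the caspase of inflammasomes, −0.39 (standard error 0.13, adjusted p = 0.241). *Pidd1*, the scaffold of a caspase 2 complex, had 0.40 (standard error 0.13, adjusted p = 0.239).

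Among the 18 targets of metabolism, transport and secretion, 7 had higher and 11 lower means (median −0.088), and 0 passed in limma. An unadjusted p below 0.05 by limma was seen for 1 higher and 2 lower, beside the same 5.88% and 8.58% of all genes. *Tap1*, the peptide transporter of antigen presentation, which interferon also raises, had 8.94 and 8.97 in WT and 8.30 and 8.19 in KO. The replicates lay close together and the genotypes apart. Its difference was −0.71 (standard error 0.13, adjusted p = 0.0758). *Lpin1*, a phosphatidate phosphatase, had −0.54 (standard error 0.14, adjusted p = 0.167), and *Thbs1*, the matrix protein thrombospondin 1, had 0.33 (standard error 0.13, adjusted p = 0.325).

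The genes that act beside each member were described in the same way, and their counts at an unadjusted p below 0.05 stand beside 5.88% higher and 8.58% lower among all genes. Of 27 measured genes of the BCL2 family and the caspase pathway, listed beside BBC3, 11 had higher and 16 lower means, with a median of −0.030. By limma 0 passed, with an unadjusted p below 0.05 for 0 higher and 3 lower. *Birc3*, an inhibitor of apoptosis raised by NF-kappa B, had −0.73 (standard error 0.13, adjusted p = 0.0711). *Bmf*, a BH3-only protein, had −0.37 (standard error 0.14, adjusted p = 0.299), *Bcl2l2*, a protein that guards survival, −0.36 (standard error 0.15, adjusted p = 0.344, and −0.23 without WT replicate 1), and *Mcl1*, another of that kind, −0.23 (standard error 0.13, adjusted p = 0.441).

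Around PERP, 13 genes were measured, which are desmosome genes and the p53 relative *Trp63*. Of these, 4 had higher means, *Trp63* (0.080) among them, and 9 lower ones, with a median of −0.074. By limma 0 passed, with an unadjusted p below 0.05 for 1 higher and 1 lower. *Dsg2*, a desmosomal cadherin, had 0.41 (standard error 0.13, adjusted p = 0.235) and *Ppl*, which encodes periplakin, −0.52 (standard error 0.13, adjusted p = 0.150). Measured over the 4 arrays, the genes whose profile was nearest to that of *Perp* were *Eif4b*, *Golim4* and *Rpl13*, at distances of 0.028, 0.039 and 0.040 on the log2 scale between profiles centred on their means. As 1259 genes lay within 0.2, such likeness is common over 4 arrays, and *Rpl13* belongs to a family with many near copies.

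Of 12 measured genes around EDA2R, the ectodysplasin pathway and other TNF receptors with their adaptors, 8 had higher and 4 lower means (median 0.026), with an unadjusted p below 0.05 for 0 higher and 2 lower. *Traf1*, an adaptor of TNF receptors that NF-kappa B raises, fell over all genes. It had 8.78 and 8.78 in WT and 7.44 and 7.35 in KO, and the groups were far apart. Its difference was −1.38 (standard error 0.13, adjusted p = 0.0140 by limma), and the call was lost when KO replicate 1 (adjusted p = 0.473) or KO replicate 2 (0.734) was left out, which leaves a lone KO array. The difference itself was −1.43 and −1.33 without these arrays, where limma passed 1 and 0 genes over the whole array (1057 and 968 had an unadjusted p below 0.05). *Tnfrsf1b*, the second TNF receptor, had −0.53 (standard error 0.14, adjusted p = 0.174) and *Traf4* 0.45 (standard error 0.20, adjusted p = 0.378), which was 0.16 without WT replicate 1.

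Around SESN2 and PHLDA3, 30 genes of the sestrin, mTORC1 and AKT pathways were measured, 20 with higher and 10 with lower means (median 0.097). By limma 0 passed, with an unadjusted p below 0.05 for 2 higher and 1 lower. *Sesn3*, a paralog that FOXO factors raise, had 9.80 and 10.02 in WT and 10.41 and 10.38 in KO, so that both KO arrays were above both WT arrays. Its difference was 0.49 (standard error 0.14, adjusted p = 0.194). *Mlst8*, a subunit of both mTOR complexes, had 0.52 (standard error 0.21, adjusted p = 0.332, and 0.22 without WT replicate 1) and *Prkaa2*, a catalytic subunit of AMPK, −0.32 (standard error 0.13, adjusted p = 0.346).

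Of 23 measured ATF4 targets, a list that holds *Sesn2*, 13 had higher and 10 lower means (median 0.031), with an unadjusted p below 0.05 for 4 higher and 3 lower. *Phgdh*, the first enzyme of serine synthesis, rose over all genes. It had 8.10 and 8.48 in WT and 9.40 and 9.53 in KO, and both KO arrays stood well above both WT arrays. Its difference was 1.18 (standard error 0.17, adjusted p = 0.0448 by limma), and the call was lost when KO replicate 1 (adjusted p = 0.566) or KO replicate 2 (0.936) was left out, with differences of 1.24 and 1.11. *Aldh18a1*, which makes proline precursors, had 0.66 (standard error 0.20, adjusted p = 0.205, and 0.40 without WT replicate 1). Lower means were seen for *Nupr1*, a stress-induced chromatin protein, with −0.83 (standard error 0.15, adjusted p = 0.0753), and for *Cth*, which makes cysteine, with −0.69 (standard error 0.15, adjusted p = 0.109).

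Of 18 measured genes related to ZMAT3 and cyclin G1, which include subunits of protein phosphatase 2A, 13 had higher and 5 lower means, with a median of 0.12. By limma 0 passed, with an unadjusted p below 0.05 for 1 higher and 1 lower. *Ppp2r5d*, a regulatory subunit of that phosphatase, had 0.49 (standard error 0.20, adjusted p = 0.330, and 0.23 without WT replicate 1), and *Ppp2r5a*, another, −0.33 (standard error 0.12, adjusted p = 0.308).

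**Figure D4:**
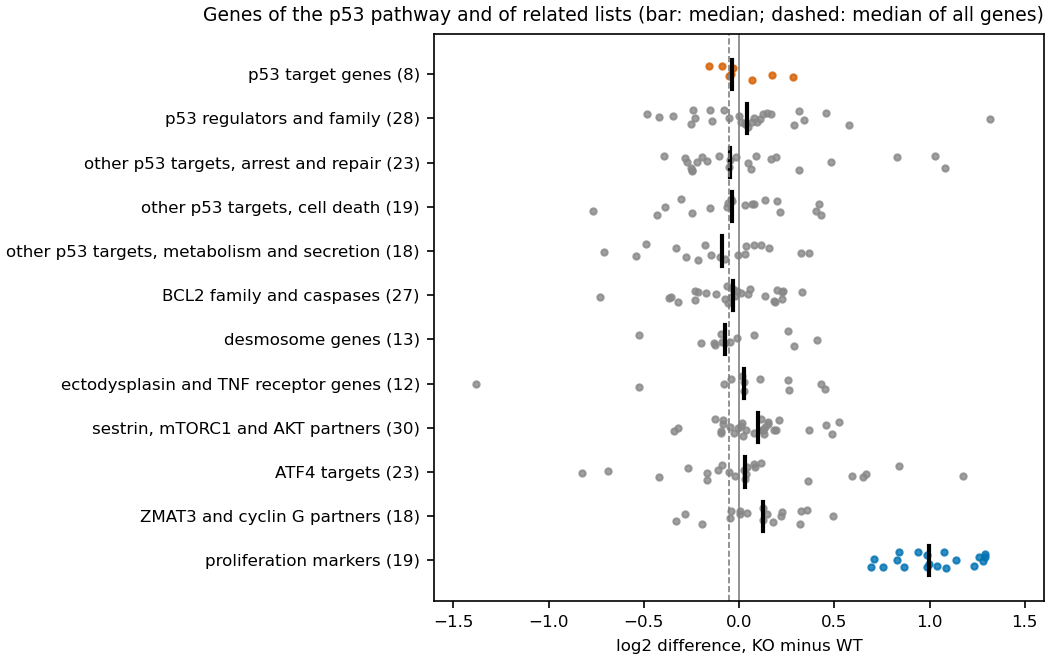
Log2 difference KO minus WT of every measured gene of the p53 target set (orange), of the lists around it (grey) and of the proliferation markers (blue), with the number of genes in brackets, the median of each list as a bar and the median of all genes (−0.051) dashed. The p53 target genes lie between −0.16 and 0.28, and the proliferation markers between 0.69 and 1.29. The list of desmosome genes also holds *Trp63*.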

How the data were processed

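RNA of 4 embryonic lung samples was hybridised to Affymetrix arrays, 1 array per sample. The file holds log2 values for 30177 probe sets as deposited, which per the submitters' processing notes came from RMA and Affymetrix Expression Console, no version being named. Of the probe sets, 21789 carry 1 gene symbol in the platform annotation, 1621 several and 6767 none. The probe set with the highest mean stood for a gene with several. Of 19938 genes, 19856 matched RefSeq by Entrez ID. Genes were fitted as KO minus WT with limma (version 3.58.1, under R 4.3.3, functions lmFit and eBayes, residual and prior degrees of freedom 2 and 4.42), and the threshold was a Benjamini-Hochberg adjusted p of 0.05 over all of them. The code was tested on simulated data. The members and lists were chosen with earlier results of these data known, so lists are described by counts and medians, and no list was tested. Alternatives were other scalings, filters, probe set rules and moderation, a replicate block, each array left out and a threshold of 0.10. The rule for named genes took *Hmga2*, the members, list genes past the threshold or among the 4 with the smallest p, the 3 brightest cell type markers of a list, and the 3 genes nearest in profile to the member with the widest range. Genes of it that passed no threshold are printed in part. The same likeness for *Trp53* could not be computed. The search with the C and the G alone kept exact was added after the promoters were seen. Figures used matplotlib 3.10.9 and Python 3.11.15.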

Additional observations from a re-analysis of the deposited data

How the results depend on the processing

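The 8 p53 target genes kept the sign of their differences under every alternative that used all 4 arrays. *Eda2r* dropped out without the dimmest 40 percent of genes. Most of these alternatives could not turn a sign. Blocks, moderation and the filter leave the difference itself unchanged, and each member had 1 probe set. The scalings alone could move it. Cyclic loess took *Mdm2* to −0.11, *Eda2r* to 0.32 and the median of the 8 to −0.075. Without 1 array, the differences ran from −0.17 to 0.077 for *Mdm2*, from −0.24 to 0.055 for *Bbc3*, from −0.13 to 0.072 for *Phlda3* and from −0.21 to 0.11 for *Sesn2*, and *Hmga2* ran from −0.076 to 0.18. These 4 targets turned positive without WT replicate 2, and *Mdm2* also without KO replicate 2 (0.031). The median of the 8 ran from −0.15 to 0.075, and 0 to 1 of them passed. Replicate numbers did not pair the samples (correlation of deviations −0.24). Under the replicate block 0 of the 8 passed, 6 genes of the pathway lists (2 without it) and 602 of all genes (156 without it). The crossed pairing, chosen after seeing the data, gave 6 and 512. Cyclic loess gave 5 and 335, leaving out the dimmest 40 percent 5 and 301, and a threshold of 0.10 gave 5 and 457. Centring each array on its median gave 294 over all genes. Without 1 array, 0 to 58 genes of the pathway lists and 0 to 6292 of all genes passed, the highest without WT replicate 2. Cyclic loess moved the median of all genes from −0.051 to 0.0023. The causes were not tested. Wherever 1 array is left out, its group keeps a lone array, whose spread is not measured. Without either WT array, limma gave each of the 8 p53 target genes the same standard error (0.155). The p values of those settings therefore rest on a shared spread and not on that of the gene itself. Signal over background is not given by these values, and having 2 arrays a group keeps the intervals wide.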
